A study of Mus musculus with 18 samples.

Results

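Peroxiredoxins, thioredoxin, glutathione peroxidases and a quinone reductase were followed at the mRNA level in sEVs (small extracellular vesicles, which cells shed into their surroundings) and in the cells of the cultures they came from. The set was chosen by gene symbol and holds 10 of the 54307 genes of the deposited table: Prdx1 to Prdx6, Txn1, Gpx1, Gpx4 and Nqo1. By the main location of the protein, 7 were grouped as cytosolic (Prdx1, Prdx2, Prdx6, Txn1, Gpx1, Gpx4 and Nqo1), 2 as mitochondrial (Prdx3 and Prdx5) and 1, Prdx4, as the enzyme of the endoplasmic reticulum (ER). All 10 passed the filter on low values in every fit.

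Peroxiredoxins remove hydrogen peroxide with a reactive cysteine, which is then reduced again, for most of them by thioredoxin. Glutathione peroxidases use glutathione and, in Gpx1 and Gpx4, a selenocysteine that is encoded by a UGA codon; Gpx4 acts on lipid peroxides in membranes, and Prdx6 also works with glutathione. Prdx4 enters the ER by a signal peptide and uses peroxide to drive disulfide formation in the ER lumen. In brain, Prdx6 is known as an astrocyte enzyme and Prdx2 as an abundant neuronal one, and several of these genes, with Nqo1 as the classic case, are targets of the stress-activated factor NRF2. Prdx5 is also found in peroxisomes and cytosol, and Gpx4 has a mitochondrial and a nuclear form that share most of its transcript, so the 3 locations are a simplification.

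Poly(A) RNA was sequenced from primary mouse brain cultures in 6 groups of 3 libraries: astrocyte sEVs and astrocyte cells, microglia sEVs and microglia cells, and neuron sEVs and neuron cells. The study asked how far the mRNA packaged into sEVs is specific to the cell type. No genotype or treatment separates the groups, and the strain, the age of the cultures and the way sEVs were isolated are not given in the sources used here. Cell RNA came from a part of the cultures that made the sEVs. Nothing says whether the replicates were separate cultures, so p-values measure the spread between these libraries, which may be technical. Values are normalized counts. They were divided by transcript length only where values per kilobase are given. Distances between genes inside a library, percentiles and values of one gene set beside another were not so divided.

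Normalized counts summed to 40672561 to 54740814 in sEV libraries and 36947428 to 69276566 in cell libraries, with 7840 to 15951 genes in sEVs and 13494 to 18131 in cells at a value of 10 or more. Microglia sEV replicate 1 had the fewest. Mitochondrially encoded genes took 0.0614 to 0.515% of sEV and 0.939 to 7.1% of cell libraries, and the ferritin light chain gene Ftl1 took 3.95 to 22% of sEV and 0.28 to 1.41% of cell libraries. The part of these shares in the differences below was not tested, beyond setting all libraries to equal totals or equal distributions. Summed over 8 markers each, astrocyte genes reached 484662 to 763304 in astrocyte sEVs and 945925 to 1170707 in astrocyte cells, microglia genes 46678 to 51301 in microglia sEVs and 127683 to 144134 in microglia cells, and neuron genes 126132 to 154640.3 in neuron sEVs and 256527 to 318587 in neuron cells. The microglia marker Tmem119 was listed at 0 in all 3 microglia sEV libraries. Neuron libraries also held astrocyte markers, at 114143 to 160972 in sEVs and 136369 to 149392 in cells, and astrocyte libraries held oligodendrocyte lineage markers, at 89997 to 185439 in sEVs and 267311 to 477376 in cells. Of 8 microglia markers, 5 were listed at 0 in all neuron sEV libraries and 3 in all neuron cell libraries. Neuron libraries held oligodendrocyte lineage markers too, at 14008 to 20239 in sEVs and 35302 to 105921 in cells, without overlap. Fibroblast and meningeal markers reached at most 572 in an sEV library and 14848 in a cell library, both maxima in single libraries of astrocyte sEVs and microglia cells. The part of these markers in the results was not tested. Microglia libraries held astrocyte markers at 5182 to 5952 in sEVs and 4337 to 15540.1 in cells.

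Prdx4 and Prdx3 reach the ER and the mitochondria by sequence at the start of the protein, which is why the starts of their coding sequences are shown beside those of the cytosolic Prdx1 and Prdx2. The sequences are the first bases of the coding sequence in the GENCODE vM21 transcripts (GRCm38) of genes on chromosomes X, 19, 4 and 8, given 5′ to 3′. Capitals mark the bases before the first base that aligned with the coding sequence of Prdx1, 228 in Prdx4 and 174 in Prdx3.
Prdx4: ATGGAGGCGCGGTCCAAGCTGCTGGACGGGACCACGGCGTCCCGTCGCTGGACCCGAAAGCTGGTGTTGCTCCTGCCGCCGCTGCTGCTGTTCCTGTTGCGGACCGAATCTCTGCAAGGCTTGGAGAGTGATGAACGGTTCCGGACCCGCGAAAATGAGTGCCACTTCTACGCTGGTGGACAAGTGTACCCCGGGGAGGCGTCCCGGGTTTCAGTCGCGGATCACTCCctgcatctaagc
Prdx3: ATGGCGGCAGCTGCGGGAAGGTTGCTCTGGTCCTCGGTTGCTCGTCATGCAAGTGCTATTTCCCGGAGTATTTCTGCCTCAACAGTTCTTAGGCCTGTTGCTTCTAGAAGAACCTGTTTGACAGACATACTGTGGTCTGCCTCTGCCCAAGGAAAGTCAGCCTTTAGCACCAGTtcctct
Prdx1: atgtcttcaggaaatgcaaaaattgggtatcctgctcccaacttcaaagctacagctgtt
Prdx2: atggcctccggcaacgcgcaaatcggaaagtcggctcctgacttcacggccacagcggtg
Downstream of its own extension Prdx4 was identical to Prdx1 at 397 of 591 aligned bases (67.2%), Prdx3 to Prdx1 at 392 of 588 (66.7%), and Prdx1 to Prdx2 at 418 of 597 (70.0%). Apart from Trmt112 and Prdx5, transcripts of other genes that matched a member over 300 or more bases with 95% or more of them identical held at most 0.187% of the value of any member in any library, for Gpx4. The kit does not mark strand, so Prdx5 may share reads with Trmt112, which overlaps it on the opposite strand and has a transcript matching it at those limits, and whose value reached 51.7% of that of Prdx5 in 1 library. Prdx2 overlaps Rnaseh2a and Junb in the same way, with mean values of 1161 and 2484 over the 18 libraries beside 20555 for Prdx2.

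Both glutathione peroxidases carry the selenocysteine codon in the reading frame, and the window around it is shown because it is the feature that sets them apart from the cysteine-based peroxiredoxins. The codon, in capitals, starts at base 139 of the coding sequence of Gpx1 (chromosome 9) and at base 217 of that of Gpx4 (chromosome 10), in the same annotation. For Gpx4 this is the position in the transcript used, with a coding sequence of 594 bases, and it can differ in the other forms of Gpx4.
Gpx1: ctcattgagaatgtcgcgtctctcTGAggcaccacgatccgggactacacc
Gpx4: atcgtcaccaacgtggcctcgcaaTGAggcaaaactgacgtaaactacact

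sEVs were set against cells first as the mean of the 3 cell types. The mRNA of the ER enzyme Prdx4 was lower in sEVs, while Gpx1, Txn1, Prdx6, Prdx5 and Prdx2 were higher. On the log2 scale Prdx4 fell by 1.17 ± 0.17 (SE), to 0.446 times the level of cells (limma adjusted p = 3.98e-05). Gpx1 rose by 0.88 ± 0.09 (adjusted p = 2.75e-06), Txn1 by 0.76 ± 0.11 (3.3e-05), Prdx6 by 0.65 ± 0.12 (0.000376), Prdx5 by 0.42 ± 0.12 (0.00784) and Prdx2 by 0.33 ± 0.09 (0.00754). The other members stood at 0.26 ± 0.13 (Gpx4, adjusted p = 0.11), -0.25 ± 0.10 (Prdx1, 0.0507), -0.22 ± 0.18 (Prdx3, 0.328) and -1.97 ± 1.37 (Nqo1, 0.248). In all, 6 of 10 members were called, 5 higher and 1 lower, where 49.1% of the 19612 genes tested were called, 2355 higher and 7283 lower. The median of the 10 members was 0.30, beside -0.93 for all genes.

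With the values as deposited the median gene was itself lower in sEVs. The members called in the 2 directions then did not stand equally far from the rest of the table. Prdx4 lay -0.23 from the median gene, whereas Gpx1 lay 1.81, Txn1 1.69 and Prdx6 1.58 above it. Ranked by value among the genes tested, Prdx4 stood at percentile 70.7 to 88.8 over the libraries and Gpx1 at 91.2 to 98.1. The part of abundance in these distances was not tested. Quantile normalization, which gives all libraries 1 distribution, moved the median gene by 1.004 and changed the split of called genes to 4711 higher and 4225 lower, from 2355 higher and 7283 lower with the values as deposited. On that scale Prdx4 lay -0.91 from the median gene, beside 0.84 for Gpx1, 0.78 for Txn1 and 0.86 for Prdx6, distances of similar size. Prdx4 was still called there, at -0.84 (limma adjusted p = 0.000707), and so were Gpx1, Txn1, Prdx6 and Prdx5, at 0.91, 0.85, 0.93 and 0.49. These 5 calls held under all 25 alternatives run. That of Prdx2 ended with quantile normalization (adjusted p = 0.108) and with equal totals (0.085). Prdx1 was called lower in 7 of the alternatives, among them those without astrocyte sEV replicate 1 or 3, astrocyte cell replicate 1, microglia sEV replicate 1 or neuron sEV replicate 3 (adjusted p = 0.0226 to 0.0473). Gpx4 was called higher without astrocyte sEV replicate 2 or neuron sEV replicate 2 (adjusted p = 0.0262 to 0.0276).

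**Figure D1:**
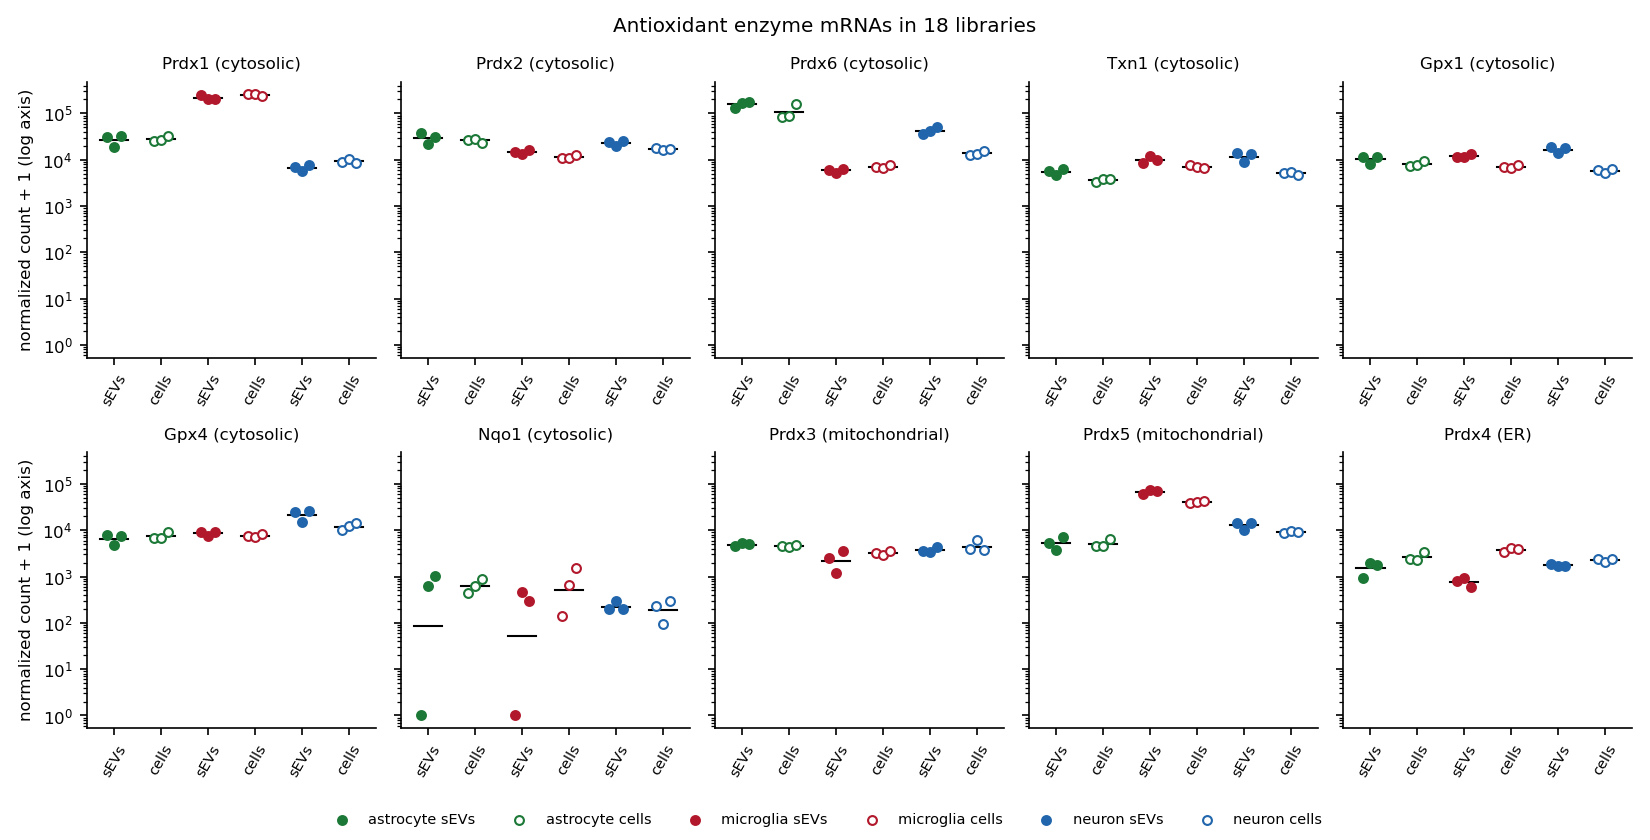
Normalized count plus 1 of each enzyme (y axis, log scale) in the 18 libraries, by group along the x axis; filled points are sEV libraries, open points cell libraries, and bars the mean on the log scale. Prdx4 lies lower in sEVs than in cells in all 3 cell types, and Nqo1 is listed at 0 in 1 astrocyte sEV and 1 microglia sEV library.

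Prdx4, the ER peroxiredoxin, differed most in microglia. Its normalized counts were 796, 926 and 604 in microglia sEVs, against 3460.2, 4087 and 3849 in microglia cells. All 3 sEV libraries lay far below all 3 cell libraries, and the level fell to 0.202 times that of cells (log2 -2.31 ± 0.29, limma adjusted p = 2.61e-05). This call held under all 26 alternatives, and Prdx4 lay -1.52 from the median gene of that comparison.

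In astrocytes Prdx4 had 939, 1959 and 1815 in sEVs, against 2412, 2256 and 3322 in cells. The groups did not overlap, with sEV replicate 1 as the lowest library, and the difference was -0.81 ± 0.29 (limma adjusted p = 0.0485). That p lies close to the threshold: it was 0.0575 to 0.201 without astrocyte sEV replicate 1, any 1 of the astrocyte or microglia cell libraries or any 1 of the neuron libraries. Without astrocyte sEV replicate 1 the difference itself was -0.48. The call was lost in 19 of 26 alternatives, among them quantile normalization (0.079), no filter (0.0657), library weights (0.0829) and the 6 astrocyte libraries alone (0.118); with the replicate block it was 0.0619. In neurons Prdx4 had 1878, 1676 and 1679 in sEVs, against 2389, 2053 and 2347 in cells. Here too every sEV library was below every cell library, but the fitted difference of -0.37 ± 0.29 was not called (limma adjusted p = 0.373, 95% confidence interval -0.99 to 0.24). It lay 0.10 from the median gene, and with quantile normalization -0.24 from it.

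Prdx4 was next compared with the other enzymes inside each library. The measure is the log2 value of Prdx4 minus the mean log2 value of a group of members, not divided by transcript length. It is given without a test because the members were chosen with results known. It depends little on how libraries are scaled to each other, except where a member is listed at 0. Nqo1 is so listed in astrocyte sEV replicate 1 and microglia sEV replicate 1. There the mean of the 7 cytosolic members depends on scaling and on the pseudocount. Prdx4 was further below the cytosolic enzymes in sEVs than in cells in all 3 cell types. Against the 7 cytosolic members it stood at -2.41, -2.30 and -2.93 in astrocyte sEVs and -1.88, -2.11 and -1.85 in astrocyte cells. The values were -2.36, -3.36 and -3.98 in microglia sEVs and -1.07, -1.10 and -1.47 in microglia cells. In neurons they were -2.35, -2.30 and -2.62 in sEVs and -1.19, -1.27 and -1.35 in cells. In no cell type did the sEV and cell libraries overlap. The cytosolic members themselves had a median sEV difference of 0.20 in astrocytes, 0.16 in microglia and 0.84 in neurons. The median gene stood at -0.60, -0.79 and -0.47, so it too would stand further below them in sEVs than in cells. How many of all genes did so without overlap was not counted.

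Nqo1 weighs on that mean, since it is listed at 0 in single sEV libraries, and without it (an alternative chosen after its values were seen) the distances were larger. Over the 6 remaining cytosolic members Prdx4 stood at -3.66 ± 0.75 in astrocyte sEVs and -2.61 ± 0.15 in astrocyte cells, -4.42 ± 0.37 in microglia sEVs and -1.89 ± 0.15 in microglia cells, and -3.32 ± 0.23 in neuron sEVs and -2.08 ± 0.13 in neuron cells (SD, n = 3 each). Again the groups did not overlap. Against the mitochondrial Prdx3 and Prdx5 it stood at -1.75 ± 0.60 in astrocyte sEVs and -0.87 ± 0.11 in astrocyte cells, and at -4.00 ± 0.68 in microglia sEVs and -1.59 ± 0.13 in microglia cells. Those groups did not overlap either. In neurons the values were -1.99 ± 0.21 in sEVs and -1.49 ± 0.35 in cells, with overlap.

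The distance varied with the partner. Against Gpx1, Txn1 and Prdx6 the distance of Prdx4 was larger in every sEV library than in every cell library of all 3 cell types. Against Prdx1, the cytosolic relative aligned with it above, this was so in microglia, at -8.27, -7.81 and -8.40 in sEVs and -6.22, -6.003 and -5.96 in cells. In neurons the groups overlapped, with means of -1.96 in sEVs and -2.05 in cells. They overlapped in astrocytes as well, as did the distances to Prdx2 and Gpx4 there. Against Nqo1, the lowest member, sEV and cell libraries overlapped in all 3 cell types, so in astrocytes 3 of the 7 cytosolic partners gave no overlap and 4 gave overlap.

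**Figure D2:**
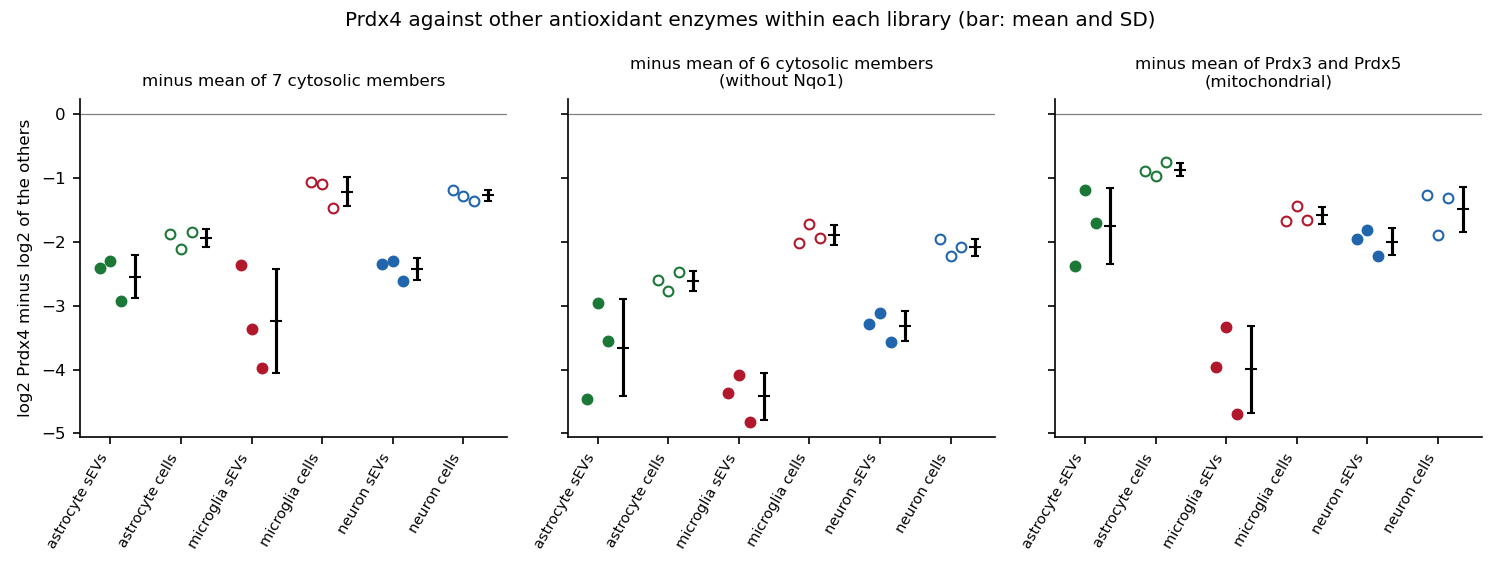
Log2 value of Prdx4 minus the mean log2 value of other enzymes within each library (y axis), by group, against the 7 cytosolic members (left), the 6 without Nqo1 (middle) and the mitochondrial Prdx3 and Prdx5 (right); filled points are sEVs, open points cells, and bars the mean and SD of 3 libraries. sEV libraries lie below the cell libraries of their cell type in every panel but the right one, where neurons overlap.

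Among the cytosolic peroxiredoxins, Prdx6, a 1-Cys enzyme that also has phospholipase activity, differed most between sEVs and cells, and in neurons. Prdx6 had 36087, 41539.6 and 51239 in neuron sEVs, against 12359.8, 13435 and 15481 in neuron cells. The lowest sEV library was above the highest cell library by more than the range within either group, and Prdx6 rose to 3.1 times the cell level (log2 1.63 ± 0.20, limma adjusted p = 2.21e-05, called in all 26 alternatives). Prdx6 is high in astrocytes, and the summed astrocyte markers of neuron libraries ranged over 114143 to 160972 in sEVs and 136369 to 149392 in cells, with overlap; their part in the result was not tested. In bulk RNA a change in the share of one cell type and a change in RNA per cell cannot be told apart.

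Astrocytes had 129427, 165923 and 177330.0 of Prdx6 in sEVs, against 85149.9, 87349 and 158713 in cells. Cell replicate 3 was about as high as the sEV libraries, so the groups overlapped, and the difference of 0.56 ± 0.20 was not called (adjusted p = 0.0553). It was called without astrocyte cell replicate 3 (0.86, adjusted p = 0.00149), without astrocyte sEV replicate 1 (0.70, adjusted p = 0.0375) and with quantile normalization (1.24, adjusted p = 1.3e-05). Microglia had 6105, 5259 and 6288 in sEVs, against 6811, 6487 and 7624 in cells. Every sEV value was below every cell value there, by little, and the difference of -0.25 ± 0.20 was not called (adjusted p = 0.439) and turned to 0.07 with equal totals.

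Prdx1 and Prdx2, the abundant typical 2-Cys enzymes of the cytosol, stood close to the cell level in sEVs. Prdx1 had 245486, 207982 and 204542 in microglia sEVs, against 258461, 262077 and 239868 in microglia cells, with overlap (log2 -0.21 ± 0.17, limma adjusted p = 0.43). In neurons Prdx1 had 6837, 5849 and 7792 in sEVs, against 9115, 10461 and 8618 in cells. Those groups did not overlap, and the difference of -0.47 ± 0.17 missed the threshold (adjusted p = 0.0562), though it passed in 8 of 26 alternatives, among them those without astrocyte sEV replicate 2 or 3 or neuron sEV replicate 3 (0.00753 to 0.0445). Prdx1 in astrocytes overlapped between sEVs and cells (-0.07 ± 0.17, adjusted p = 0.835).

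Prdx2 had 24654, 20131 and 25157 in neuron sEVs, against 17597, 16386 and 17299.9 in neuron cells. All sEV libraries were above all cell libraries, and the difference of 0.44 ± 0.16 passed the threshold narrowly (limma adjusted p = 0.0483). It did not pass in 18 of 26 alternatives, among them 14 of the 18 that leave out 1 library (adjusted p = 0.0508 to 0.148). With equal totals it was 0.14 (0.709) and with quantile normalization 0.25 (0.379). Of the fits without 1 library it passed in those without astrocyte sEV replicate 1 or 2, astrocyte cell replicate 3 or neuron sEV replicate 2. Prdx2 stood at 0.36 ± 0.16 in microglia (adjusted p = 0.116) and 0.20 ± 0.16 in astrocytes (0.398). Only without astrocyte sEV replicate 2 did leaving out 1 library bring these past the threshold (adjusted p = 0.0348 and 0.0323); equal totals did so in microglia (0.0394).

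Txn1, the cytosolic thioredoxin that recharges most peroxiredoxins, was higher in the sEVs of all 3 cell types without overlap. Txn1 had 13884, 8812 and 13170.2 in neuron sEVs, against 5297, 5372 and 4646 in neuron cells. sEV replicate 2 was the lowest of the sEV libraries and still above every cell library, and Txn1 rose by 1.20 ± 0.18 (limma adjusted p = 0.000134, called in all 26 alternatives). In astrocytes Txn1 had 5587, 4700.1 and 6275 in sEVs, against 3363, 3887 and 3778 in cells. The difference there was 0.58 ± 0.18 (adjusted p = 0.0292), and it ended without astrocyte sEV replicate 1 or 3 or any 1 astrocyte cell library (adjusted p = 0.0501 to 0.1) and with equal totals (0.2). In microglia Txn1 had 8398, 12000.4 and 9667 in sEVs, against 7538, 6843 and 6672 in cells. At 0.50 ± 0.18 it was not called (adjusted p = 0.0575), but was so without astrocyte sEV replicate 2, microglia sEV replicate 1 or neuron sEV replicate 2 (0.0266 to 0.0472).

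Gpx1, the general glutathione peroxidase of the cytosol, was higher in the sEVs of neurons and of microglia. Gpx1 had 18790.0, 13694 and 17533 in neuron sEVs, against 5926, 5107 and 6308 in neuron cells. The groups lay far apart, at 2.87 times the cell level (log2 1.52 ± 0.16, limma adjusted p = 5.07e-06). Microglia had 11484, 11681 and 13351 in sEVs, against 6901, 6655 and 7848 in cells, again without overlap (0.77 ± 0.16, adjusted p = 0.0028). Both calls held in all 26 alternatives. In astrocytes Gpx1 had 11432, 8095 and 11578 in sEVs, against 7353, 7542 and 9357 in cells. sEV replicate 2 lay among the cell libraries, and the difference of 0.35 ± 0.16 was not called (adjusted p = 0.138; 0.0248 without that library).

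Gpx4, which protects membrane lipids, had 24283, 15423 and 26600.4 in neuron sEVs, against 10183, 12209 and 14034 in neuron cells. The groups did not overlap, though sEV replicate 2 came close to the highest cell library. Gpx4 rose by 0.84 ± 0.22 (limma adjusted p = 0.00969); the call ended without neuron sEV replicate 3 (0.0531) or neuron cell replicate 1 (0.0506) and with equal totals (0.142). In microglia Gpx4 stood at 0.16 ± 0.22 (adjusted p = 0.715) and in astrocytes at -0.22 ± 0.22 (0.527), both with overlap between sEVs and cells.

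Nqo1, the quinone reductase, was the least abundant member and had the widest errors. It had 0, 635 and 1024 in astrocyte sEVs, against 449, 620.4 and 899 in astrocyte cells. Microglia had 0, 472 and 289 in sEVs, against 141, 645 and 1549.8 in cells, and neurons 195, 289.9 and 201 in sEVs, against 225, 95.6 and 294 in cells. sEV and cell libraries overlapped in astrocytes and neurons, and in microglia too, and a library listed at 0 makes its fitted differences depend on the pseudocount. None was called (adjusted p = 0.424, 0.348 and 0.971 in astrocytes, microglia and neurons).

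Of the mitochondrial members Prdx5 was called in microglia and Prdx3 in no cell type. Prdx5, an atypical 2-Cys enzyme, had 61840.1, 74712 and 68956 in microglia sEVs, against 38384, 40679.5 and 41753 in microglia cells. The groups did not overlap and Prdx5 rose by 0.76 ± 0.20 (limma adjusted p = 0.012), a call that ended only with library weights (0.09) among 26 alternatives. In neurons it had 14671, 9949 and 14030.1 in sEVs, against 8527, 9690.3 and 9178 in cells, without overlap. At 0.48 ± 0.20 the difference was not called (adjusted p = 0.0933), except without astrocyte sEV replicate 2 or neuron sEV replicate 2 (0.034 to 0.0443) and in 2 further alternatives. In astrocytes Prdx5 overlapped (0.03 ± 0.20, adjusted p = 0.982).

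Prdx3, the typical 2-Cys enzyme of mitochondria, had 2484, 1175 and 3564 in microglia sEVs, against 3154, 2986 and 3522 in microglia cells. The sEV values spread over both sides of the cell values, and the difference of -0.56 ± 0.31 was called only without microglia sEV replicate 3 (limma adjusted p = 0.219 with all libraries and 0.0274 without it). It had 4494, 5186 and 5000.3 in astrocyte sEVs, against 4475, 4264 and 4822 in astrocyte cells, and 3584, 3458 and 4397 in neuron sEVs, against 3863, 6033 and 3683 in neuron cells. Both pairs overlapped (adjusted p = 0.872 and 0.672).

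**Figure D3:**
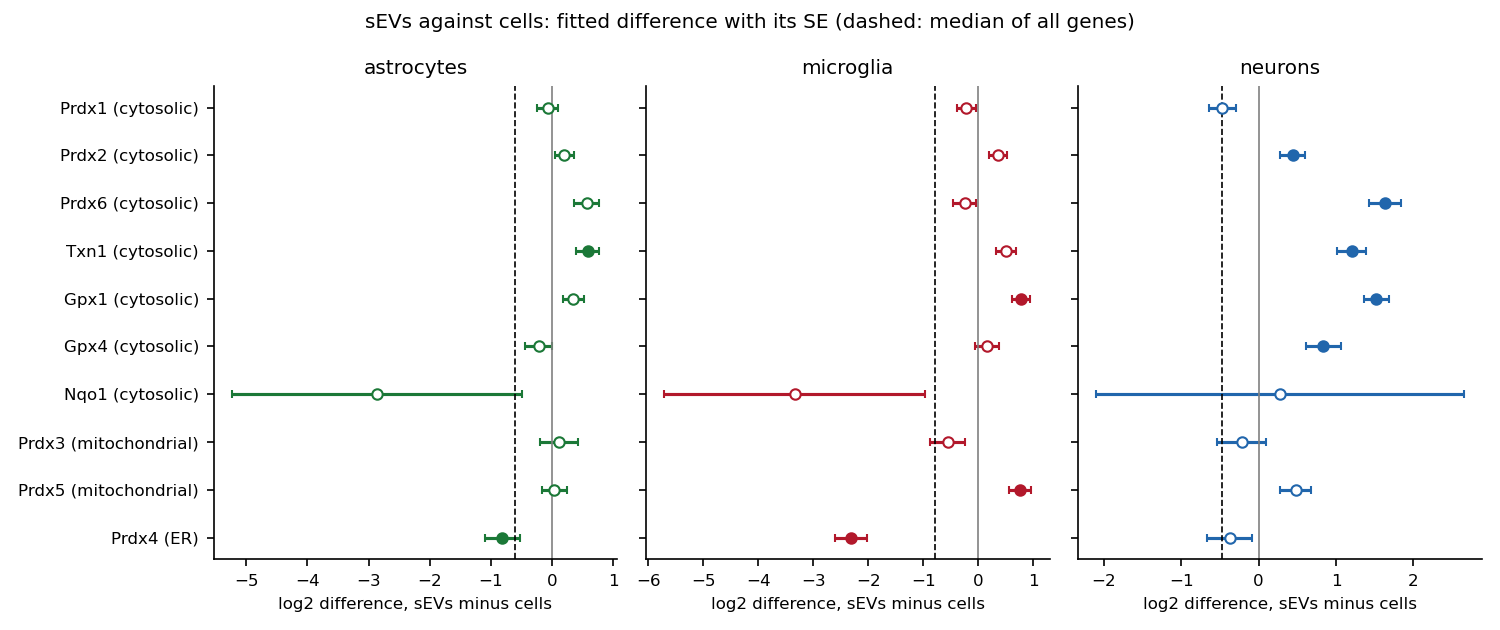
Fitted log2 difference between sEVs and cells (x axis) with its SE for each enzyme (rows, cytosolic above mitochondrial above ER) in astrocytes, microglia and neurons; filled points were called, the solid line is 0 and the dashed line the median of all genes. Prdx4 is at -0.81, -2.31 and -0.37 in the 3 panels, and the wide bars are those of Nqo1.

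Counted over the members, astrocytes had 1 higher and 1 lower call of 10, where 8.0% and 18.6% of all genes tested were called, so these counts are near the background. Microglia had 2 higher and 1 lower, beside 5.08% and 21.2%, and neurons 5 higher and none lower, beside 11.1% and 18.9%. The median gene stood at -0.60, -0.79 and -0.47 and the median member at 0.07, -0.03 and 0.46 in astrocytes, microglia and neurons. Quantile normalization changed the split of all called genes to 2624 higher and 2681 lower in astrocytes (from 1569 higher and 3646 lower), 2957 higher and 2402 lower in microglia (from 996 higher and 4151 lower) and 3615 higher and 3439 lower in neurons (from 2185 higher and 3705 lower). Members without overlap and higher in sEVs numbered 1 in astrocytes, 4 in microglia and 6 in neurons, where 15.3%, 8.45% and 22.7% of genes did so. Those lower numbered 1, 2 and 2, beside 27.2%, 24.9% and 34.2%.

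Whether the sEV difference itself varied between cell types was tested in the same fit. For Prdx4 microglia minus neurons gave -1.94 ± 0.40 on the log2 scale (limma adjusted p = 0.00318), which held in all 25 alternatives. Astrocytes minus microglia gave 1.498 ± 0.40 (adjusted p = 0.0228), a call that ended without astrocyte cell replicate 1 or 2 or microglia cell replicate 2 or 3 (0.0516 to 0.0606), with equal totals (1.01, 0.0858) and with quantile normalization (0.90, 0.163). Astrocytes and neurons gave -0.44 ± 0.40, with an interval of -1.30 to 0.43 (adjusted p = 0.72).

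Prdx6 and Gpx1 differed between neurons and the other types. The sEV difference of Prdx6 was -1.88 ± 0.29 for microglia minus neurons (limma adjusted p = 0.000263, held in all 25 alternatives). For astrocytes minus neurons it was -1.07 ± 0.29 (adjusted p = 0.0463), which ended in 18 alternatives, 14 of them without 1 library (0.0539 to 0.123); it held without astrocyte sEV replicate 3, astrocyte cell replicate 1 or 2, or neuron sEV replicate 1. With quantile normalization this difference of Prdx6 was -0.35 (adjusted p = 0.426), with library weights -0.95 (0.124) and with equal totals -0.94 (0.0541). Gpx1 gave -1.17 ± 0.23 for astrocytes minus neurons (adjusted p = 0.00704), which ended only with equal totals (0.0573). For microglia minus neurons Gpx1 gave -0.75 ± 0.23 (adjusted p = 0.0329); this ended without microglia sEV replicate 1 or 2, microglia cell replicate 1 or 3, neuron sEV replicate 1 or 3 or neuron cell replicate 1 or 2 (0.0542 to 0.082). With equal totals it was -0.13 (0.793), with quantile normalization -0.73 (0.0673) and with library weights -0.69 (0.105), and the median gene of that contrast was -0.68. No other member was called with all libraries: 1, 2 and 3 of 10 members passed in astrocytes minus microglia, astrocytes minus neurons and microglia minus neurons, where 13.3%, 5.09% and 20.7% of all genes did. Calls appeared for Prdx6 without astrocyte cell replicate 3 (astrocytes minus microglia, adjusted p = 0.00323) and for Prdx5 without astrocyte sEV replicate 3 (same contrast, 0.0266). They also appeared for Gpx4 without neuron sEV replicate 2 (astrocytes minus neurons 0.0154, microglia minus neurons 0.0382) and for Txn1 without microglia or neuron sEV replicate 2 (microglia minus neurons, 0.0128 to 0.0305). With quantile normalization all genes split into 1448 higher and 1331 lower, 592 higher and 402 lower and 2654 higher and 2351 lower in these contrasts, from 1720 higher and 888 lower, 484 higher and 515 lower and 1533 higher and 2536 lower. With equal totals astrocytes minus microglia gave 1384 higher and 1475 lower, and microglia minus neurons 2270 higher and 1818 lower.

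Further redox genes were listed by location, without the 10 members, to set the contrast between Prdx4 and the other enzymes in its pathway. Most ER and secretory pathway redox genes were lower in sEVs, and more cytosolic ones were higher than lower. For the mean of the cell types 26 of 32 ER and secretory genes fell and none rose, with a median of -2.77, where 37.1% of all genes were called lower and the median gene stood at -0.93. Of 29 cytosolic and nuclear genes 15 rose and 4 fell, with a median of 0.46. All genes were called at 49.1% in either direction and 37.1% lower. With quantile normalization the counts were 0 higher and 26 lower for the ER list and 18 higher and 2 lower for the cytosolic list. The split of all called genes moved too on that scale, as given above. Prdx4, at -1.17, thus lay above the median of the ER list.

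Protein disulfide isomerases were among the ER genes with the smallest p. Pdia3, which folds glycoproteins, had 10143, 8417 and 8038 in microglia sEVs, against 76179.8, 87666 and 94297 in microglia cells. In neurons it had 1866, 1096 and 1486 in sEVs, against 54319, 61876 and 56321 in cells, and in astrocytes 2078, 3294 and 2056 in sEVs, against 62009, 66607 and 74728 in cells. No sEV library came near a cell library, and the mean difference was -4.46 ± 0.11 (limma adjusted p = 1.33e-12). Pdia6 fell by 3.85 ± 0.16 (adjusted p = 1.01e-10) and the ER selenoprotein Selenof by 1.70 ± 0.09 (9.97e-10). Sod3, the secreted superoxide dismutase, was listed at 0 in all 3 microglia sEV libraries, against 227, 419 and 731 in microglia cells.

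By cell type, ER list genes fell in 20 of 32 in astrocytes, 26 in microglia and 16 in neurons, and none rose. With quantile normalization they were 23, 19 and 21, and 1 gene was then higher in neurons, with the splits of all called genes given above. Over the 18 fits without 1 library the falling genes numbered 18 to 23, 21 to 26 and 15 to 20. The cytosolic list had 10 higher and 2 lower of 29 in astrocytes. It had 7 higher and 3 lower in microglia. Neurons had 13 higher and 3 lower. With equal totals the neuron counts were 9 and 5. Over the fits without 1 library 9 to 11, 5 to 7 and 10 to 14 of the cytosolic genes rose. Of all genes, 8.0% were called higher and 18.6% lower in astrocytes. The shares were 5.08% higher and 21.2% lower in microglia. In neurons 11.1% were called higher and 18.9% lower.

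On the cytosolic list, Srxn1, the sulfiredoxin that repairs overoxidized peroxiredoxins, had 4621, 6081 and 5926 in astrocyte sEVs, against 334, 347 and 682 in astrocyte cells. Every sEV value was several times the highest cell value (3.68 ± 0.39, limma adjusted p = 7.78e-06). Selenow, a small cytosolic selenoprotein, had 262087, 243816 and 258704 in neuron sEVs, against 34737, 56146 and 43985 in neuron cells. It rose in neurons by 2.53 ± 0.19, in microglia by 1.71 ± 0.19 and in astrocytes by 1.39 ± 0.19 (adjusted p = 1.11e-07, 7.96e-06 and 6.59e-05). The glutathione transferase Gstm5 rose in the 3 types by 1.23 ± 0.13 (astrocytes), 1.26 ± 0.13 (microglia) and 2.09 ± 0.13 (neurons).

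Mitochondrial redox genes went both ways, with 3 of 10 higher and 1 lower in the mean of the cell types (median -0.06), where 49.1% of all genes were called in either direction. Txn2, the thioredoxin that reduces Prdx3, had 19827, 28346 and 24115 in neuron sEVs, against 4833, 5516 and 5774 in neuron cells. It rose by 2.15 ± 0.16 in neurons and 0.98 ± 0.16 in astrocytes (limma adjusted p = 1.38e-07 and 0.000438) and stood at 0.46 ± 0.16 in microglia (0.0539). Txn2 passed there with equal totals (0.00181), with quantile normalization (0.03), with the replicate block (0.0296) and without astrocyte or neuron sEV replicate 1 or 2 or microglia sEV replicate 2 (0.0332 to 0.0472). Sod2, the mitochondrial superoxide dismutase, was higher in microglia sEVs (0.67 ± 0.12, adjusted p = 0.000712) and in astrocytes stood at -0.35 ± 0.12 (0.0439). Leaving out any 1 library other than astrocyte sEV replicate 3 or neuron cell replicate 1 or 2 ended that astrocyte call of Sod2 (adjusted p = 0.0512 to 0.166, with -0.22 without astrocyte sEV replicate 2), as did quantile normalization (0.101). Of 14 regulators and further targets of NRF2, 6 rose and 4 fell in the mean of the cell types, with a median of -0.18. All genes were called there at 49.1% in either direction and 37.1% lower. Of the 14, 6 rose and 4 fell in astrocytes, beside 8.0% and 18.6% of all genes, and 7 rose and 3 fell in neurons, beside 11.1% and 18.9%. In microglia 0 of the 14 rose and 5 fell, beside 5.08% and 21.2% of all genes, and 3 fell with quantile normalization or with equal totals. Those named that rose, Bach1, Mafg and Maff, encode transcription factors, so the list's count is not one of antioxidant enzymes. Bach1, a repressor of NRF2 targets, had 5635, 11957 and 5878 in astrocyte sEVs, against 348, 202 and 105 in astrocyte cells (5.23 ± 0.58, adjusted p = 1.06e-05). Mafg, one of the small Maf proteins that pair with NRF2 and BACH1, rose in astrocytes (3.83 ± 0.31, adjusted p = 4.6e-07) and neurons (4.08 ± 0.31, 1.21e-07) and fell in microglia (-1.74 ± 0.31, 0.000625).

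**Figure D4:**
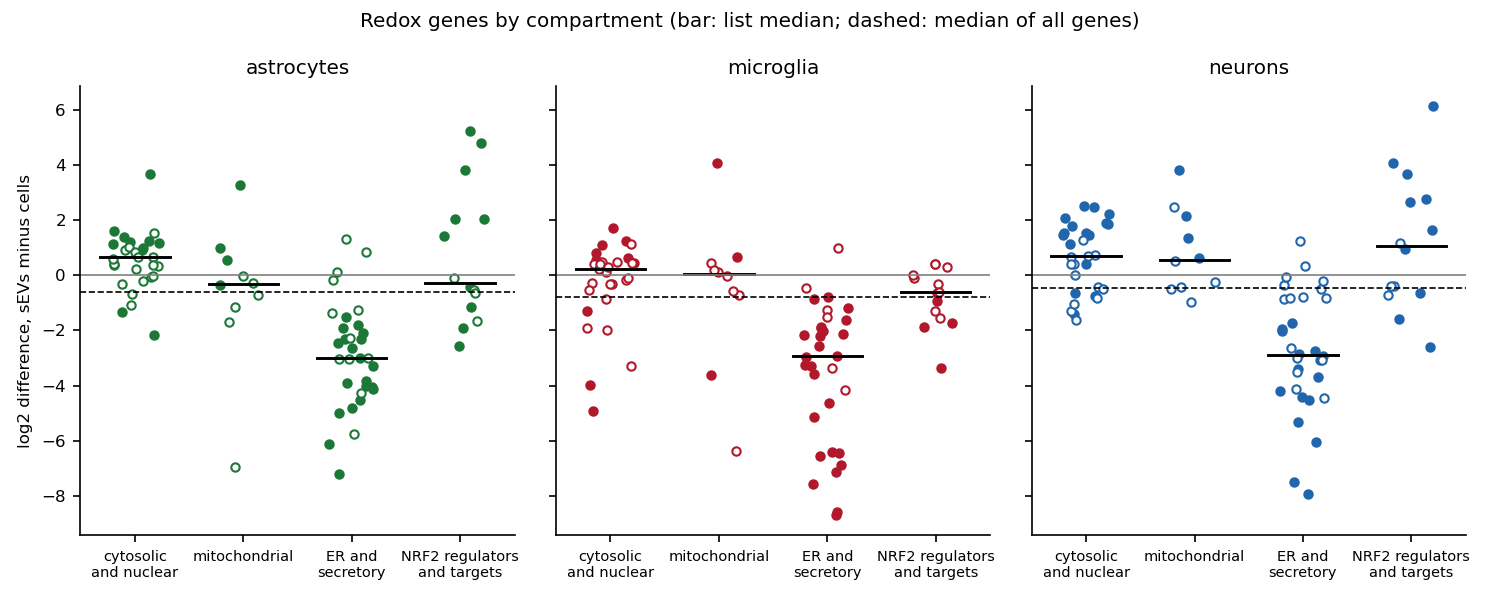
Log2 difference between sEVs and cells (y axis) of each gene of 4 lists of further redox genes (x axis) in astrocytes, microglia and neurons; filled points were called, bars are list medians and the dashed line is the median of all genes. The ER and secretory lists have medians of -3.00, -2.94 and -2.90, and the cytosolic lists 0.66, 0.22 and 0.69.

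Prdx1, Prdx5, Prdx6 and Gpx4 were each highest in the same cell type in sEVs and in cells. Prdx1 was highest in microglia. Among sEVs it averaged 27075 ± 7326 for astrocytes, 219337 ± 22711 for microglia and 6826 ± 971 for neurons, and among cells 27917 ± 4155, 253469 ± 11917 and 9398 ± 953 in that order (SD, n = 3 each). No groups overlapped among the sEVs or among the cells. Microglia minus neurons gave 5.01 ± 0.21 in sEVs and 4.76 ± 0.12 in cells, and astrocytes minus microglia -3.05 ± 0.21 and -3.19 ± 0.12 (limma adjusted p = 2.04e-06, 1.78e-08, 1.41e-05 and 1.32e-07).

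Prdx6 was highest in astrocytes and lowest in microglia, with neurons between. Astrocytes minus microglia gave 4.73 ± 0.16 in sEVs and 3.92 ± 0.23 in cells, and astrocytes minus neurons 1.88 ± 0.16 and 2.95 ± 0.23 (limma adjusted p = 2.02e-06, 1.32e-06, 0.000133 and 2.98e-05). Microglia lay below neurons by more in sEVs, at -2.86 ± 0.16, than in cells, at -0.98 ± 0.23, which is the difference tested above. Prdx5 was highest in microglia, at 68503 ± 6448 in sEVs and 40272 ± 1721 in cells, with astrocytes minus microglia at -3.71 ± 0.24 and -2.98 ± 0.15 (adjusted p = 1.04e-05 and 5.41e-07). Prdx2 was higher in astrocytes than in microglia, by 1.03 ± 0.20 in sEVs and 1.19 ± 0.11 in cells (0.00395 and 1.77e-05). Prdx2 was also higher in astrocytes than in neurons in cells, by 0.61 ± 0.11 (0.00266), while in sEVs that pair stood at 0.37 ± 0.20 (0.293; 0.0451 without astrocyte sEV replicate 2). Gpx4 was highest in neurons, with astrocytes minus neurons at -1.73 ± 0.27 in sEVs and -0.67 ± 0.16 in cells (0.00316 and 0.011) and microglia minus neurons at -1.34 ± 0.27 and -0.65 ± 0.16 (0.00326 and 0.00489). Except for that sEV pair of Prdx2, which was not called, these results of Prdx1, Prdx6, Prdx5, Prdx2 and Gpx4 were called in all 15 alternatives of their fits. Their size depended on scaling: with quantile normalization astrocytes minus microglia was -1.90 in sEVs and -1.74 in cells for Prdx1, and 1.66 and 2.04 for Prdx2. In cells astrocytes minus neurons was then 0.94 for Prdx2, and with equal totals microglia minus neurons was -1.64 for Prdx6 and -1.32 for Gpx4.

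For Prdx4 the order of the cell types was not the same in sEVs as in cells. In cells, with the values as deposited, microglia had the highest level, 3799 ± 316, above astrocytes at 2663 ± 576 and neurons at 2263 ± 183; microglia minus neurons was 0.75 ± 0.16 (limma adjusted p = 0.00319, 0.588 with equal totals). In sEVs microglia had the lowest level, 775 ± 162, below astrocytes at 1571 ± 552 and neurons at 1744 ± 116. Microglia minus neurons was -1.19 ± 0.38 there (adjusted p = 0.0263), a call that ended without microglia sEV replicate 3 or any 1 neuron sEV library (0.0615 to 0.087) and with quantile normalization (-0.57, 0.321). Astrocytes minus microglia was -0.53 ± 0.16 in cells (adjusted p = 0.0201; 0.0523 to 0.07 without astrocyte cell replicate 1 or 2 or microglia cell replicate 2 or 3) and turned to 0.24 with equal totals (0.13). It was 0.97 ± 0.38 in sEVs (adjusted p = 0.0732; 0.0193 without astrocyte sEV replicate 1). Astrocytes and neurons did not differ beyond their spread in sEVs (-0.22 ± 0.38, interval -1.09 to 0.65) or in cells (0.22 ± 0.16, interval -0.16 to 0.59; adjusted p = 0.362, and 0.0324 with quantile normalization).

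Calls of the other members rested more on single libraries or on scaling. Txn1 was lower in astrocytes than in microglia, at -0.93 ± 0.11 in cells, where equal totals ended the call (limma adjusted p = 9.07e-05 and 0.287). In sEVs it was lower in astrocytes than in neurons, at -1.10 ± 0.23, except without neuron sEV replicate 1 or 3 (adjusted p = 0.0148; 0.0986 to 0.107 without them, 0.0904 with equal totals). Gpx1 in sEVs was -0.69 ± 0.19 for astrocytes minus neurons (adjusted p = 0.0431), which ended without any 1 of 8 of the 9 sEV libraries, all but astrocyte sEV replicate 3 (0.0585 to 0.202), and with equal totals (-0.45, 0.336) or quantile normalization (-0.41, 0.293). Prdx3 was 0.49 ± 0.19 for astrocytes minus microglia in cells, near the threshold (adjusted p = 0.0463; 0.0547 to 0.12 without any 1 library of either type), and 1.16 ± 0.39 in sEVs (0.0444; 0.058 to 0.105 without any 1 sEV library other than microglia replicate 3). In sEVs Txn1 was also lower in astrocytes than in microglia (-0.85 ± 0.23, adjusted p = 0.0191; 0.057 to 0.0615 without astrocyte or microglia sEV replicate 2, 0.141 with equal totals and 0.179 with quantile normalization). Prdx5 was lower in astrocyte than in neuron sEVs (-1.29 ± 0.24, 0.00881; 0.0667 to 0.0758 without neuron sEV replicate 1 or 3). Prdx2 was lower in microglia than in neuron sEVs (-0.66 ± 0.20, 0.0209; 0.0506 to 0.0667 without microglia sEV replicate 1 or 2 or neuron sEV replicate 1 or 3). In cells Gpx1 was higher in astrocytes than in neurons (0.48 ± 0.13, 0.0244; 0.0583 to 0.0758 without astrocyte replicate 3 or neuron replicate 1 or 2). Nqo1 was called between no 2 types with the values as deposited; in cells quantile normalization brought astrocytes minus neurons to 0.0116 and microglia minus neurons to 0.00337. In all, 6 of 10 members were called in each pair of sEV groups and 7 of 10 in each pair of cell groups. All genes tested were called at 39.5%, 14.9% and 58.9% in sEVs and 64.4%, 32.5% and 71.7% in cells, for astrocytes minus microglia, astrocytes minus neurons and microglia minus neurons. The member counts are thus near the background in microglia minus neurons and, in cells, in astrocytes minus microglia. They lie above it in astrocytes minus neurons and, by less, in astrocytes minus microglia in sEVs. Most members rank high by value among the genes tested, and the part of abundance in these counts was not tested.

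Scaling matters for these pairs, since the median gene stood at 1.498, -0.59 and -3.00 in sEVs and 0.84, -0.25 and -1.26 in cells. With quantile normalization the called genes split into 3068 higher and 2720 lower, 1146 higher and 1335 lower and 3536 higher and 3866 lower in sEVs, from 4131 higher and 1997 lower, 486 higher and 1823 lower and 2106 higher and 7025 lower. In cells they split into 5898 higher and 4840 lower, 4192 higher and 3155 lower and 5763 higher and 6043 lower, from 8028 higher and 3822 lower, 1916 higher and 4065 lower and 3666 higher and 9530 lower. With equal totals the cell split of astrocytes minus microglia was 10523 higher and 2619 lower.

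**Figure D5:**
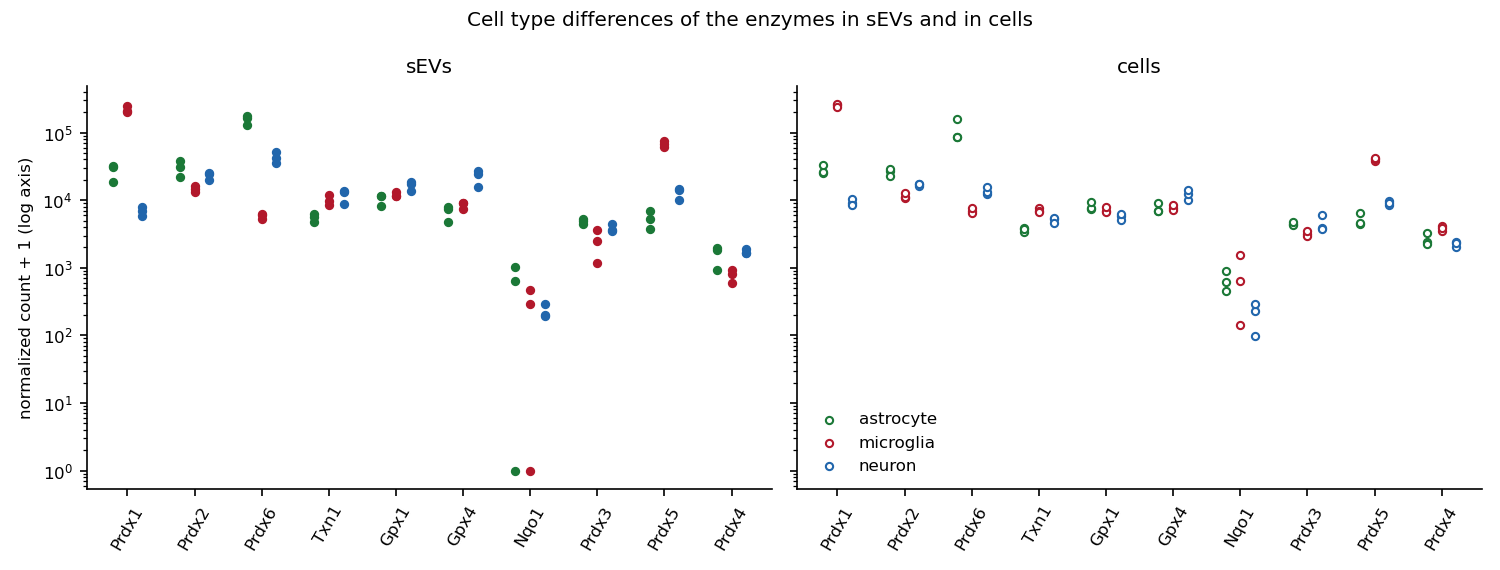
Normalized count plus 1 (y axis, log scale) of each enzyme (x axis) in astrocytes, microglia and neurons, with sEV libraries in the left and cell libraries in the right panel; each point is 1 library. Prdx1 and Prdx5 are highest in microglia and Prdx6 in astrocytes in both panels, and microglia hold the lowest Prdx4 among sEVs but, with the values as deposited and not with equal totals, the highest among cells.

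To compare enzymes with each other, values were divided by the length of the annotated transcript in kilobases. Prdx6 came first in astrocytes, at 66008 ± 10483 per kilobase in sEVs and 46252 ± 17533 in cells, and Prdx1 in microglia, at 95613 ± 9900.1 in sEVs and 110490.0 ± 5195 in cells. Gpx4 came first in neurons, at 23047 ± 6152 in sEVs and 12661 ± 2009 in cells (SD, n = 3 each). Prdx4 was 9th of the 10 in 5 groups and 7th in microglia cells, where it reached 3837 ± 319.6, above Prdx6 at 2922 ± 245 and Prdx3 at 2179 ± 186. In microglia sEVs Prdx4 was at 783 ± 163, below both. Nqo1 was 10th in every group. The places of Prdx1 and Prdx2 depend on which transcript is used. With the shortest principal transcript of each gene Prdx2 came first in neuron cells, at 14548 per kilobase, ahead of Gpx4, which stayed first in neuron sEVs. With its transcript of 877 rather than 2294 bases the mean of Prdx1 in neuron cells would be 10716 instead of 4097 per kilobase.

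Genes with the pattern most like Prdx4 were sought by the Pearson correlation of log2 values over the 18 libraries, which share cell type, sEV or cell origin and depth. The 5 closest were Lrp10 (r = 0.934), Sun2 (0.921), Igf2r (0.921), P3h1 (0.919) and Atp9b (0.912). Lrp10 is a receptor of the endocytic and Golgi system, Sun2 a nuclear envelope protein, Igf2r the mannose 6-phosphate receptor, and P3h1 a collagen prolyl hydroxylase of the ER. Lrp10 averaged 146 ± 91.7 in microglia sEVs and 2081 ± 443 in microglia cells, and Igf2r 0.404 ± 0.699 in microglia sEVs and 2203 ± 370.0 in microglia cells (SD, n = 3 each). All 5 had their lowest group mean in microglia sEVs, as Prdx4 had, which follows largely from their choice by correlation with it.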

How the data were processed

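Poly(A) RNA of sEVs and of part of their source cells was reverse transcribed with a poly(dT)-primed low-input kit, amplified with 15 PCR cycles and tagmented, per the labels' protocols. The submitters' processing notes name Salmon 1.8.0, GRCm39 and DESeq2. The signal values used here are the normalized counts the authors deposited, 1 column per library. At most 9.04% of a library's values below 100 came out as whole reads within 0.001, so counts were not recovered and no count model was run; depth is an estimate of 30658292 to 77758624 reads per library. The deposited group means were not used, since that of microglia sEVs equalled the mean of its replicates in 1477 of 18481 genes.

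Tests were run on log2(normalized count + 1) with limma 3.58.1 in R 4.3.3 (lmFit, eBayes with a trend), over genes with at least 10 in at least 3 libraries of the fit. Calls are genes whose p, adjusted by Benjamini-Hochberg over all genes of the contrast, was under 0.05. A fit of 18 libraries gave sEVs against cells and the differences between cell types in that effect; fits of 9 sEV and 9 cell libraries gave the pairs of types. Fold changes of low genes are understated on this scale. Alternatives were a pseudocount of 10, no filter, equal totals, quantile normalization, library weights, a replicate block, the 6 libraries of a type alone and leaving out each library. The tests were also run on simulated data. The members, lists, tests and alternatives were chosen with earlier results of these data known.

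Named were all 10 members, up to 4 genes of each list by smallest p per comparison of sEVs with cells (higher of the 2 group means at 50 or more), and the 5 genes most correlated with Prdx4 (predicted genes, RIKEN clones and pseudogenes left out). For Nnt, which has 2 rows, the higher was used. Symbols come from the deposited table. Transcript lengths and coding sequences come from GENCODE vM21; its build, GRCm38, is not the one of the table, and no coordinates are given. Near-identical copies were found with blastn 2.17.0. Promoter windows are those of RefSeq (GRCm38.p6).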

Additional observations from a re-analysis of the deposited data

Results flagged for a closer look

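For 3 members the difference between sEVs and cells was not equal in 2 cell types by the contrast of the effects in the fit of all libraries. These are values of limma on the log2 scale. Prdx4 gave 1.498 for astrocytes minus microglia (adjusted p = 0.0228) and -1.935 for microglia minus neurons (0.00318). The sEV libraries were below the cell libraries in all 3 types for Prdx4. In neurons, where 34.2% of genes lay so, the fitted difference was not called (-0.37, limma adjusted p = 0.373).

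Prdx6 gave -1.07 for astrocytes minus neurons (adjusted p = 0.0463) and -1.88 for microglia minus neurons (0.000263). In microglia every Prdx6 value of sEVs was below every value of cells, and in neurons every one was above; the microglia difference was not called (-0.25, adjusted p = 0.439) and was 0.07 with equal totals. Gpx1 gave -1.172 for astrocytes minus neurons (adjusted p = 0.00704) and -0.7499 for microglia minus neurons (0.0329). Under other settings 4 of these calls ended, and the effect shrank most for Gpx1 in microglia minus neurons with equal totals (-0.13, adjusted p = 0.793) and for Prdx6 in astrocytes minus neurons with quantile normalization (-0.35, 0.426).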

How the results depend on the processing

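Of 2680 values of members under alternatives, over 130 results, 2454 stayed on their side of the threshold, 151 lost their call and 70 gained one. A change of sign was counted as a reversal only where either value was called, which held for 5 values. Sign changes between uncalled values are among the 2454, such as Prdx1 in microglia (-0.21 as deposited, 0.27 with quantile normalization). Of 2368 values of list genes under alternatives, over 112 results, 60 lost a call, 9 gained one and none reversed. The reversals were among cells: Gpx4 for astrocytes minus microglia (0.7563 with equal totals and 0.4551 with quantile normalization, -0.02 as deposited), Prdx4 for the same pair (0.2448 with equal totals), and Txn1 (-0.2052) and Gpx1 (-0.3595) for microglia minus neurons with equal totals. The distance of Prdx4 to the cytosolic members changed between sEVs and cells by -0.60 in astrocytes, -2.02 in microglia and -1.15 in neurons; in astrocytes it was -1.1607 with the median of the members and -1.045 without Nqo1 (-2.53 in microglia and -1.24 in neurons), and in neurons 0.0918 against Prdx1 alone. The cause of these was not tested.

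All genes called numbered 3384 in microglia with library weights (5147 without), 9158 in neurons with library weights and 9383 with only the 6 neuron libraries (5890 in the fit of 18), and 1699 for astrocytes minus microglia in the sEV effect with library weights (2608 without). Leaving out 1 library gave 567 to 1407 for astrocytes minus neurons in the sEV effect (999 with all) and 452 to 2557 for astrocytes minus neurons in sEVs (2309 with all). Without neuron cell replicate 1, 2 or 3 the effect gave 567, 578 and 574, and without neuron sEV replicate 1, 2 or 3 the sEV pair gave 452, 582 and 594.

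Whether equal replicate numbers mark sEVs and cells of the same culture is not known. The correlation of deviations was -0.0396 to 0.0445, over 0.1 in 0 of 9 pairs, and 6 of 9 libraries correlated best with their own number. With 3 libraries a group such correlations cannot decide whether the libraries were paired. With the replicate block 9536 genes were called in the mean of the cell types (9638 without it). With a replicate block within the cell type, added after seeing the data, astrocytes minus neurons in the sEV effect gave 566 (999 without). Depth is known only as an estimate, and with 3 libraries a group a difference under about the spread of replicates was not detectable.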

Other observations

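The core of the antioxidant response element, TGACNNNGC on either strand, was searched in RefSeq promoter windows (250 bases before to 50 after the start, GRCm38.p6) of 9 members. Of their 12 windows 1 held it, that of Prdx1, as GCTGAGTCA from base -133 on, beside 12.4% of 32851 windows of all genes. Such elements can lie further upstream, so this describes these windows only.

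Over the 18 libraries, which share cell type, origin and depth, log2 values of Prdx2 and Prdx6 went together (r = 0.89), as did those of Prdx1 and Prdx5 (0.75) and of Txn1 and Gpx1 (0.719), while Prdx6 and Prdx5 ran opposite (-0.868). Prdx4 correlated with no other member by more than 0.558 (Nqo1), and with Gpx1 at -0.551.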
